A study of Mus musculus with 18 samples.

Results

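The levels of 8 genes of meiotic recombination were followed across the 7 sample groups of a mouse spermatocyte array series. They were the probe sets mapped to Spo11, Dmc1, Psmc3ip, Meiob, Hsf2bp, Msh4, Mlh3 and Cntd1, which are 8 of the 15780 probe sets with a gene symbol. All 8 were on the array, and all 8 passed the filter on low values in sorted cells and in testes. The series comprises 18 arrays, and its title concerns what happens in meiosis when more autosomal chromatin stays unsynapsed. Sorted pre-mid-pachytene spermatocytes of males aged 2 months came from 3 replicates of Ttf+/+T43H, 3 of t12+/+T43 and 2 of the fertile strain C57BL/10J. Sorted mid-late-pachytene spermatocytes came from C57BL/10J males of the same age (n = 2). Whole testes without their tunica came from males aged 15 days that were Ttf+/+T43H (n = 3), t12+/+T43 (n = 3) or C57BL/6J (n = 2). Both carrier lines were kept on C57BL/10J, so the testis controls are of another strain than the carriers. The carriers are written below as Ttf/T43H and t12/T43, and the labels name neither littermate controls nor a C57BL/10J testis. As background, T43H is a reciprocal translocation between chromosomes 16 and 17, and t haplotypes are variants of proximal chromosome 17.

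Meiotic recombination starts when SPO11, with its partners, cuts the DNA of each chromosome. The cut ends are trimmed and coated by single-strand binding proteins, and the recombinase DMC1 then helps to pair them with the homologous chromosome. Most of the joint molecules are undone, and a few are stabilised by MSH4 and MSH5 and resolved with the help of MLH3 to give crossovers. Breaks are made in leptotene and zygotene, and crossover sites are fixed during pachytene, the stage at which these cells were sorted.

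The members divide by role into break formation (Spo11), strand invasion and its accessory factors (Dmc1, Psmc3ip, Meiob and Hsf2bp) and crossover formation (Msh4, Mlh3 and Cntd1). In the GRCm38.p6 annotation of RefSeq, Spo11 lies at chr2:172977379-172993576 and Dmc1 at chr15:79561497-79605159. Psmc3ip lies at chr11:101092141-101095435 and Cntd1 on the same chromosome at chr11:101279203-101288701. Msh4 lies at chr3:153857141-153906138 and Mlh3 at chr12:85234466-85270647. Meiob (chr17:24804301-24839788) and Hsf2bp (chr17:31944769-32034895) are the members on chromosome 17, which carries the t12 and Ttf variants and takes part in the translocation. All 8 are protein-coding, and an array value covers the whole gene's probe set rather than an exon or a transcript.

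Values are the authors' log2 levels, on which a difference of 1 is a 2-fold change. Levels of different genes come from different probes and are not compared with each other. Changes are log2 differences with limma's standard error (SE), and a gene is called where its p-value is under 0.05 after Benjamini-Hochberg adjustment across every tested gene. Replicate arrays correlated at 0.930 to 0.998, lowest among the sorted Ttf/T43H arrays. Array medians lay between 4.55 and 5.72, and 53.9% to 57.4% of named genes reached a log2 level of 4. Ttf/T43H replicate 2 stood apart from its group in the sorted cells. Among the sorted t12/T43 arrays, the odd array depended on the measure. Replicate 3 had the highest mean of Leydig cell markers (10.61 against 8.03 and 8.12). Replicate 2 had the highest mean of spermatid markers (7.26 against 4.96 and 5.11) and the lowest Dmc1 level (10.99 against 11.57 and 11.54).

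The sequences at the listed start sites of the members are shown because some members fell by a large factor with pachytene stage while others were not called. Of the 8 members, 6 have an entry in the RefSeq promoter table (GRCm38.p6), and Spo11 and Meiob do not. Each line gives the 150 bases before a start site of that table, 5′ to 3′ on the gene's strand. These start sites can differ from the gene ends given above. The windows of Msh4 and Hsf2bp lie wholly within the annotated gene, those of Dmc1 and Mlh3 in part, and those of Psmc3ip and Cntd1 outside it. Distances below are from the start site of the table. For Mlh3 the table holds 2 start sites, and the first is shown. Capitals mark the motifs searched on both strands, 4 in number. They were the CCAAT box, the E2F site with the letters GCGGGAA, the MYB site with the letters TAACNG, and the core of the cyclic AMP response element with the letters TGACG.
Dmc1, chr15:79605110-79605259, minus strand: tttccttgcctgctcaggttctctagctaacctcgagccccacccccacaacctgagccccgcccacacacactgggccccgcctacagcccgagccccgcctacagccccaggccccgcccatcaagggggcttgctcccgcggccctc
Hsf2bp, chr17:32034509-32034658, minus strand: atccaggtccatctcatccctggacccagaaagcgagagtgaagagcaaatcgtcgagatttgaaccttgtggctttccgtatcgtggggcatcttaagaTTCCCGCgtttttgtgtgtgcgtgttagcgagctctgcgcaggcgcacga
Msh4, chr3:153904892-153905041, minus strand: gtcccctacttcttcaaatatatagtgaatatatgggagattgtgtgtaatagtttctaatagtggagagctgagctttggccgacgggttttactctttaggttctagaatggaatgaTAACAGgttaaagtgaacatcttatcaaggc
Psmc3ip, chr11:101095436-101095585, minus strand: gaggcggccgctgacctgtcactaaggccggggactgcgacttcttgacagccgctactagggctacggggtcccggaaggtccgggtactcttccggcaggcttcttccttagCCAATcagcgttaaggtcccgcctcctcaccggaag
Mlh3, chr12:85270600-85270749, minus strand: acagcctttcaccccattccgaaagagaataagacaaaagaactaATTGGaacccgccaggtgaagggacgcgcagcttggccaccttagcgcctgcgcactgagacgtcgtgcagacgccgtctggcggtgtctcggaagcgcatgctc
Cntd1, chr11:101279053-101279202, plus strand: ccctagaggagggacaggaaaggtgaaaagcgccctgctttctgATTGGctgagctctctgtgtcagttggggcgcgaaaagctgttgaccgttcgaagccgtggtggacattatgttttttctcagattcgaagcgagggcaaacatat

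CCAAT occurred in Psmc3ip (36 bases before the start site), Mlh3 (105 bases before it) and Cntd1 (106 bases before it). The other Mlh3 window, which overlaps the one shown, holds the same CCAAT at 113 bases, with 60% G and C and 15 CpG. These letters were not in the windows of Dmc1, Hsf2bp and Msh4. Over all 27025 promoters of the table, 25.3% hold CCAAT in a window of the same length. GCGGGAA, in 2.63% of all promoters, occurred on the minus strand of the Hsf2bp window, and TAACNG, in 11.9%, occurred in the Msh4 window. TGACG, in 13.5% of all promoters, was in none of the 6 windows. The motifs do not overlap one another in any of these windows, and a match of letters is a description of the sequence only. The windows also differ in base composition. Msh4 has 38% G and C with 2 CpG, against 70% with 8 CpG in Dmc1 and 58% with 13 CpG in Mlh3, and the medians of all promoters are 54% and 4 CpG.

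**Figure D1:**
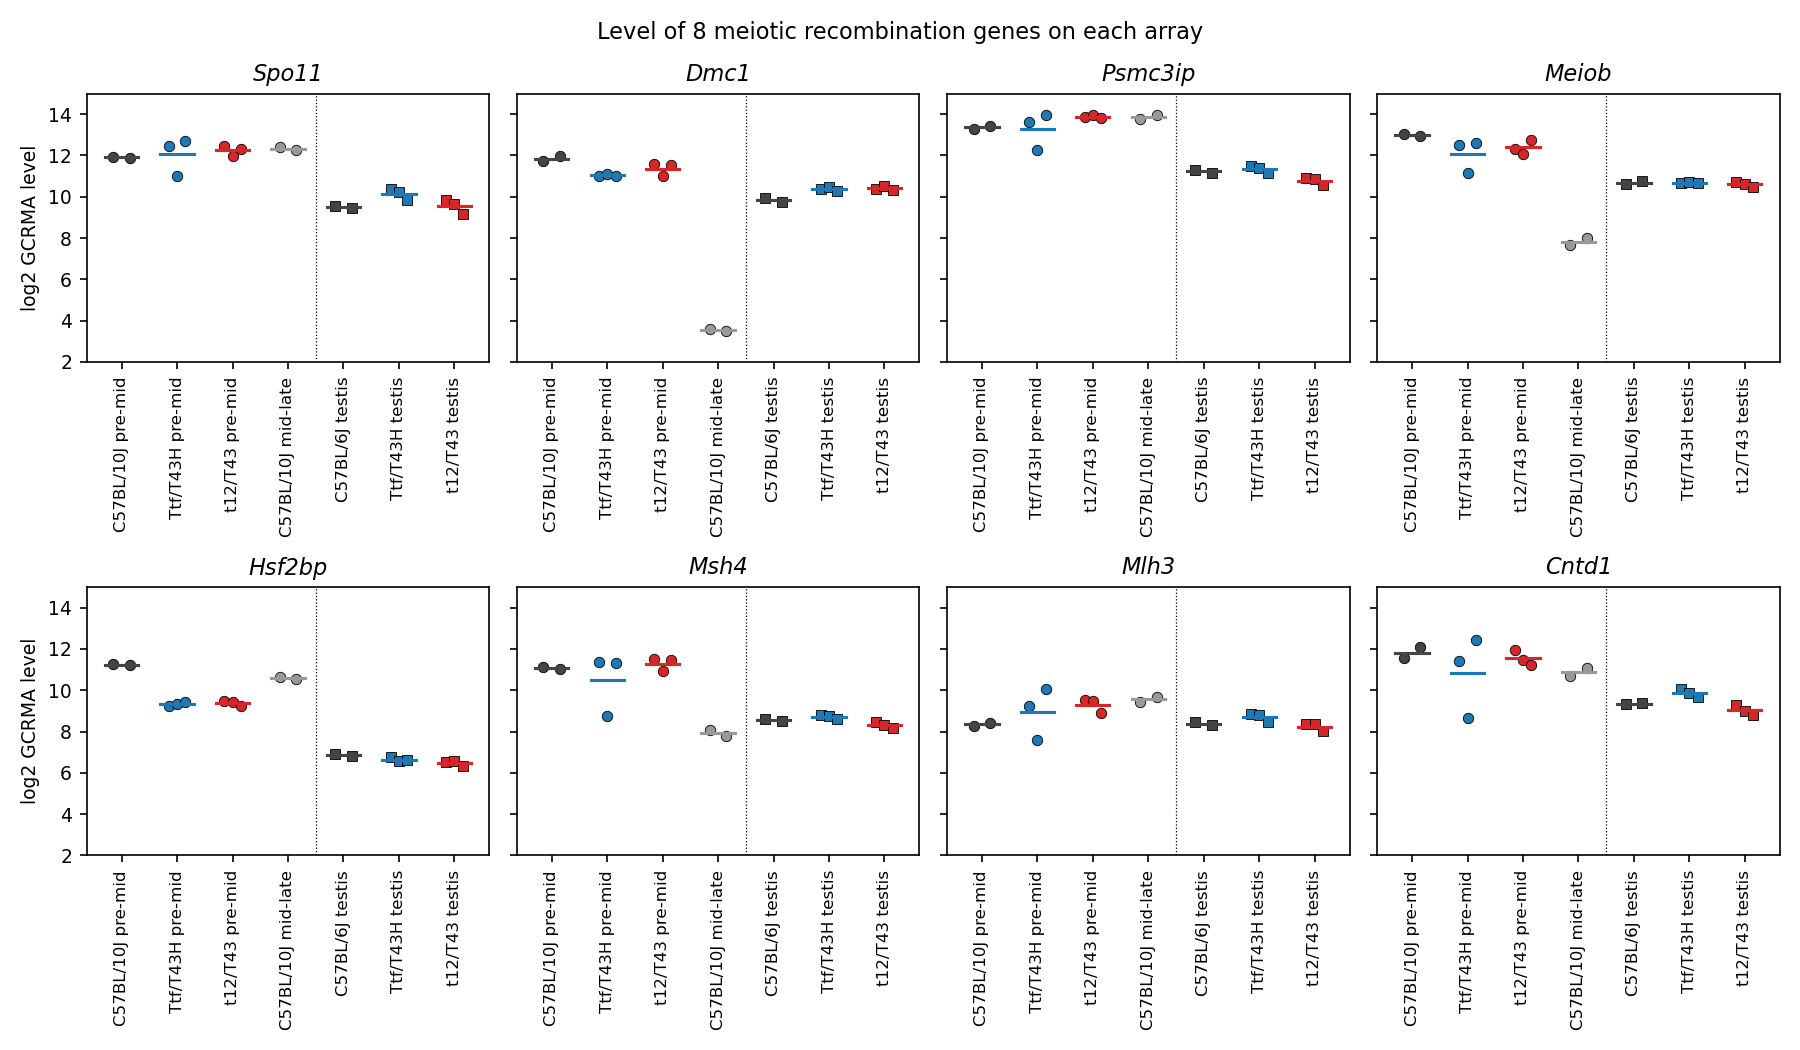
Log2 GCRMA level (vertical axis) of each member on each of the 18 arrays. Points are arrays, circles for sorted spermatocytes and squares for testes, horizontal bars are group means, and the dotted line divides sorted cells from testes. Dmc1 falls to a mean of 3.54 in mid-late pachytene, and Hsf2bp is lower on the 6 sorted carrier arrays than on the C57BL/10J arrays.

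The comparison of mid-late with pre-mid pachytene in C57BL/10J asks how the members change as normal cells go through pachytene. Dmc1, Meiob, Msh4 and Hsf2bp fell, and Spo11, Psmc3ip, Mlh3 and Cntd1 were not called. In this comparison 56.5% of all tested genes were called, so a count of 4 of 8 members lies near the background. The median change was -0.80 over the members and -0.11 over all genes tested. The sizes ranged from a fall of 8.30 to a difference of 1.21 in the other direction. The populations are bulk samples, so fewer cells of a type and less RNA per cell cannot be told apart.

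Dmc1 encodes the meiosis-specific recombinase that carries out strand invasion. Its level was 11.72 and 11.96 on the pre-mid arrays and 3.58 and 3.495 on the mid-late arrays. The difference was -8.30 ± 0.26 (adjusted p = 2.5e-07, limma), a measured factor of 315. The mid-late mean of 3.54 lies below 4, the level used here as the limit of low values, and against that limit Dmc1 was at least 229-fold lower.

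Meiob encodes a single-strand DNA binding protein that acts with SPATA22 on the trimmed ends. It stood at 13.04 and 12.95 in pre-mid cells and at 7.65 and 8.001 in mid-late cells. The fall of 5.17 ± 0.47 (adjusted p = 2.8e-05, limma) is a factor of 36.0. Unlike Dmc1, Meiob remained above a log2 level of 4 on both mid-late arrays.

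Msh4, whose product clamps joint molecules together with MSH5, had levels of 11.11 and 11.04 in pre-mid cells and 8.05 and 7.77 in mid-late cells. It fell by 3.16 ± 0.78 (adjusted p = 0.0075, limma), a factor of 8.95. The ranges were apart, and the SE comes from a spread shared by all sorted groups, the scattered Ttf/T43H arrays included.

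Hsf2bp encodes a partner of BRCA2 that acts in strand invasion. It stood at 11.27 and 11.21 in pre-mid cells and at 10.63 and 10.56 in mid-late cells, a fall of 0.65 ± 0.20 (adjusted p = 0.024, limma). That call was lost without any single array of the comparison, with adjusted p from 0.089 to 0.14. With each array centred on its median, the difference was -0.36 (adjusted p = 0.24, limma), since centring moved the median of all genes in this comparison from -0.11 to 0.18.

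The other members were not called between the stages. Spo11, the nuclease of break formation, stood at 11.94 and 11.86 in pre-mid cells and at 12.40 and 12.25 in mid-late cells, a difference of 0.43 ± 0.50 (adjusted p = 0.50, limma). Psmc3ip, the HOP2 partner of MND1 that stimulates DMC1, differed by 0.51 ± 0.48 (adjusted p = 0.40), and Mlh3, the nuclease subunit of crossover resolution, by 1.21 ± 0.65 (adjusted p = 0.15). Cntd1, a cyclin-like protein that acts when crossover sites are chosen, differed by -0.95 ± 0.999 (adjusted p = 0.46). Their 95% intervals ran from -0.70 to 1.56 for Spo11, from -0.58 to 1.60 for Psmc3ip, from -0.28 to 2.71 for Mlh3 and from -3.23 to 1.33 for Cntd1, so changes of 2-fold or more were within reach of all 4.

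**Figure D2:**
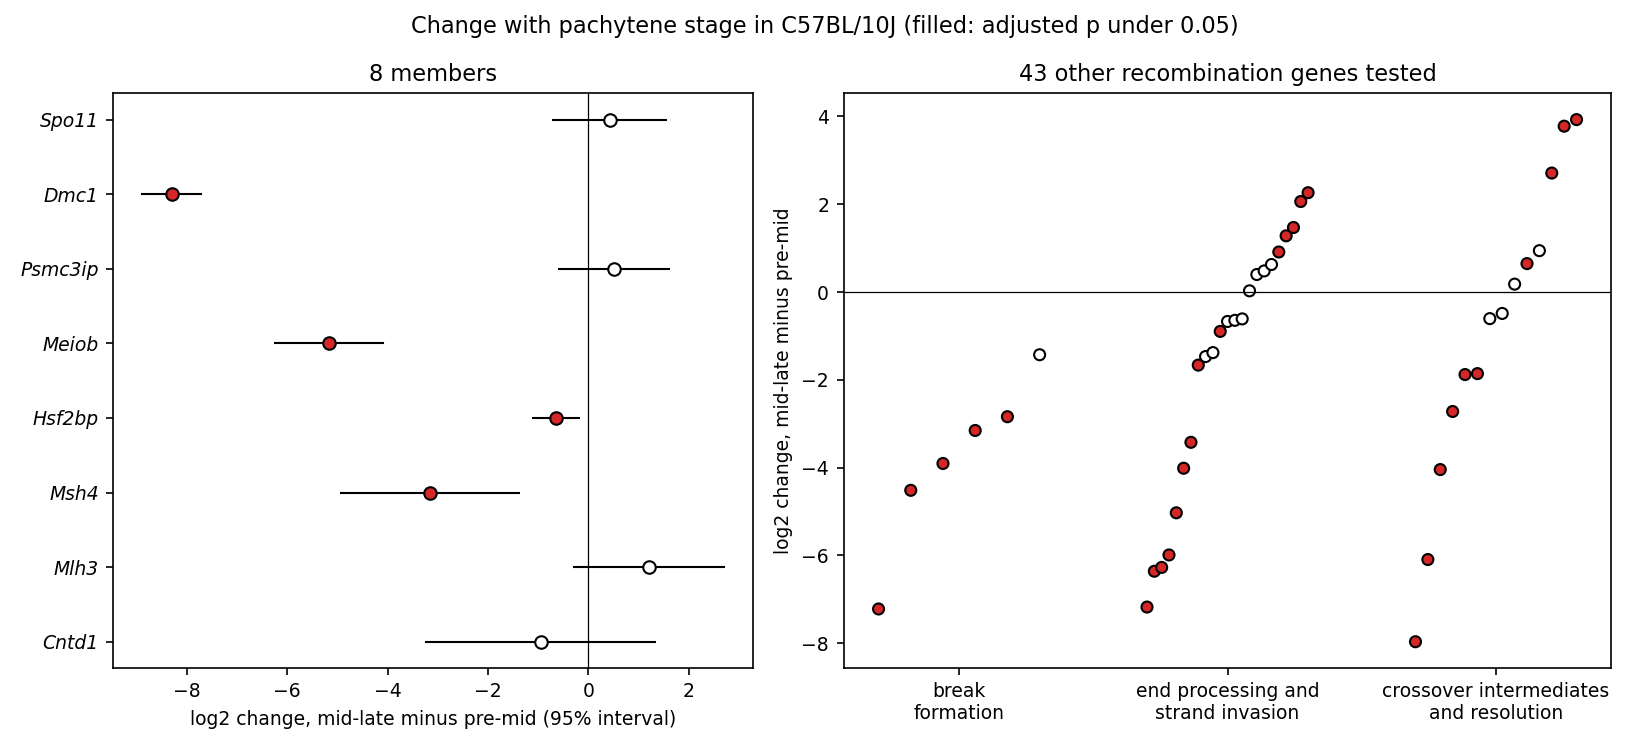
Log2 change from pre-mid to mid-late pachytene in C57BL/10J (2 arrays a stage) for the 8 members with 95% intervals (left) and for 43 other recombination genes, each a point, by step of recombination (right). Filled points have an adjusted p under 0.05. Dmc1 has the lowest value of the members, and 5 of 6 other break formation genes lie below 0 and are called.

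The other recombination genes moved in both directions with stage. Of 65 such genes listed, 46 are on the array and 43 passed the filter in the sorted cells. Among those 43, 20 fell, 9 rose and 14 did not pass the test, where 56.5% of all genes were called. The median change was -1.38 over the 43 and -0.11 over all genes tested. Of the 20 that fell, 11 had a mid-late mean below a log2 level of 4. In break formation, 5 of 6 fell and none rose, with a median of -3.53. They include Atm, the damage kinase that limits breaks (-7.22), Prdm9, the methyltransferase that places them (-4.52), and Mei4, a break accessory factor (-3.91).

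In end processing and strand invasion, 9 of 23 fell and 5 rose. Mcm8, a helicase subunit, fell by 7.18 ± 0.40 (adjusted p = 2.2e-06, limma), Palb2, which links BRCA1 to BRCA2, fell by 5.03 ± 0.36, and Mnd1, the partner of the Psmc3ip product, fell by 6.36 ± 1.15. Mnd1 had a mean of 8.31 in pre-mid cells and 1.95 in mid-late cells, while Psmc3ip stood at 13.37 and 13.88. Rpa1, a subunit of the general single-strand binding complex, rose by 2.26, while its partner subunits Rpa2 and Rpa3 fell by 4.01 and 6.27.

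In crossover intermediates and resolution, 6 of 14 fell and 4 rose. Tex11, an X-linked crossover factor, fell by 7.97 ± 0.56 (adjusted p = 6.6e-06, limma), and Msh5, the partner of Msh4, fell by 1.86 ± 0.34. The structure-specific nuclease genes Mus81 and Slx4 rose by 3.78 ± 0.30 and 3.93 ± 0.30. Where genes fell to a mean below 4, these sizes depend on the background correction of the array.

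Markers of other stages and cells differed between the 2 populations. The mean log2 level of 11 leptotene and zygotene markers was 12.86 to 12.91 in pre-mid cells and 10.92 to 11.06 in mid-late cells, and that of 9 spermatogonia and preleptotene markers was 6.35 to 6.80 against 2.94 to 2.95. The 15 spermatid markers stood at 10.51 to 11.17 in pre-mid and 8.15 to 8.71 in mid-late cells, and the 13 Sertoli cell markers at 6.48 to 6.62 and 3.84 to 4.05. The 5 Leydig cell markers stood at 3.998 to 5.80 and 3.20 to 3.75. None of the 5 macrophage and blood markers reached 4 on a pre-mid array. The 3′ minus 5′ difference of the actin control probes, a sign of RNA length, was 2.49 to 2.51 in pre-mid and 3.38 to 3.51 in mid-late cells, and its mean for Gapdh was 2.90 and 2.95. The part of other cells and of RNA length in the members' changes was not tested.

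Among sorted pre-mid cells, the carriers were compared with C57BL/10J males, which asks how the members stand in cells of translocation carriers. Hsf2bp was lower in both carrier groups, which differed from each other by 0.05 ± 0.17, and it was the member called in each. In Ttf/T43H against C57BL/10J, 1 of 8 members was called against 2.06% of all genes, and in t12/T43 against C57BL/10J 1 of 8 against 9.07%. The members' median difference was -0.69 in Ttf/T43H and -0.03 in t12/T43, and the median of all genes was 0.01 and 0.06. The 2 comparisons share the C57BL/10J arrays and so share their error.

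Hsf2bp stood at 9.24, 9.36 and 9.41 in Ttf/T43H, at 9.47, 9.44 and 9.26 in t12/T43 and at 11.27 and 11.21 in C57BL/10J. It was lower in Ttf/T43H by -1.90 ± 0.19 (adjusted p = 0.0035, limma), a factor of 3.74. It was lower in t12/T43 by -1.85 ± 0.19 (adjusted p = 0.0011, limma), a factor of 3.60. All 6 carrier arrays lay below both C57BL/10J arrays, and below both mid-late arrays. When either C57BL/10J array was left out, the Ttf/T43H difference kept its size, at -1.87 and -1.93, but was not called. Those fits have no replicate of the control, so they cannot decide whether the Hsf2bp call is firm.

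The neighbours of Hsf2bp on chromosome 17 were mixed. Of the 10 nearest tested genes, 5 on each side, 2 were called lower in each carrier group, beside 2.06% and 9.07% of all genes. Those were Rsph1, a radial spoke gene (-2.11 in Ttf/T43H and -2.53 in t12/T43), and Akap8l (-1.58 and -1.43). The median of the 10 neighbours was -0.53 in Ttf/T43H and -0.66 in t12/T43. In testes against C57BL/6J, 3 of 9 neighbours were called in Ttf/T43H, all lower. In t12/T43 testes 4 of 9 were called, 3 of them lower. Rsph1 was at -1.71 and -2.88 there, and 8.56% and 21.8% of all genes were called.

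Around Meiob, the other member on chromosome 17, 3 of 10 neighbours were called lower in Ttf/T43H and 5 of 10 in t12/T43. Those counts stand beside 2.06% and 9.07% of all genes, and the neighbours' medians were -1.39 and -1.69. Meiob itself was not called. It stood at 12.51, 11.15 and 12.59 in Ttf/T43H, at 12.33, 12.08 and 12.76 in t12/T43 and at 13.04 and 12.95 in C57BL/10J. The differences were -0.91 ± 0.43 (adjusted p = 0.32, limma) and -0.60 ± 0.43 (adjusted p = 0.49, limma), and neither carrier range overlapped that of the controls.

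Dmc1 was also below both controls on all carrier arrays without being called. Its levels were 11.01, 11.11 and 11.01 in Ttf/T43H, 11.57, 10.99 and 11.54 in t12/T43 and 11.72 and 11.96 in C57BL/10J. The differences were -0.80 ± 0.23 (adjusted p = 0.12, limma) and -0.47 ± 0.23 (adjusted p = 0.29, limma). In a fit of all 18 arrays together, the Ttf/T43H difference was called (adjusted p = 0.0068, limma). The lowest carrier array stood at 10.99, against 3.58 and 3.495 in mid-late cells.

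**Figure D3:**
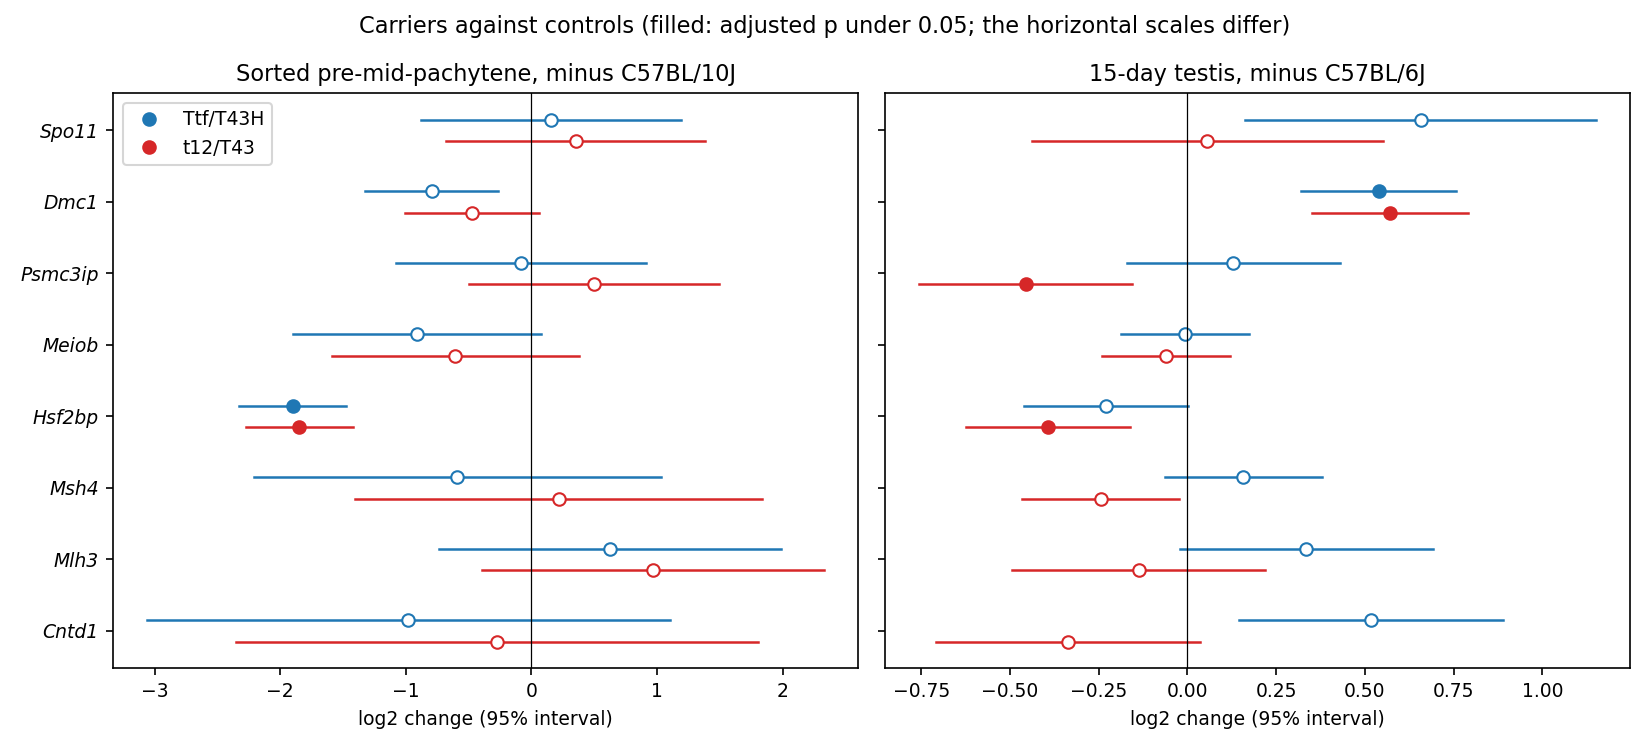
Log2 difference between carriers and controls for each member, with 95% intervals, in sorted pre-mid-pachytene cells against C57BL/10J (left) and in 15-day testes against C57BL/6J (right). Blue is Ttf/T43H and red is t12/T43, filled points have an adjusted p under 0.05, and the horizontal scales differ. Hsf2bp is near -1.90 and -1.85 in sorted cells, and Dmc1 is below 0 in sorted cells and above 0 in testes.

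Msh4, Mlh3, Cntd1, Psmc3ip and Spo11 were not called in either carrier group, and 1 array, replicate 2, lowered their means in Ttf/T43H. Cntd1 stood at 11.42, 8.65 and 12.46 in Ttf/T43H, at 11.93, 11.48 and 11.23 in t12/T43 and at 11.56 and 12.09 in C57BL/10J. Msh4 stood at 11.39, 8.73 and 11.33 in Ttf/T43H, at 11.51, 10.92 and 11.45 in t12/T43 and at 11.11 and 11.04 in C57BL/10J. In both genes the low Ttf/T43H value is that of replicate 2.

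On that array, Cntd1 was 3.29 lower than the mean of the other Ttf/T43H arrays, Msh4 2.63 lower and Mlh3 2.03 lower. Spo11 was 1.55 lower, Psmc3ip 1.52 lower and Meiob 1.40 lower. Dmc1 and Hsf2bp stayed with their group there, with differences of 0.10 and 0.03. The spermatogonia and preleptotene markers reached 8.63 on 1 Ttf/T43H array, replicate 2, against a lowest value of 6.46 in its group. The 3′ minus 5′ difference was also highest in its group on that array, at 4.41 for actin against 3.25 and 3.06, and at 3.91 for Gapdh against 3.43 and 3.26. The part of either in the low values was not tested.

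Without replicate 2, the Ttf/T43H difference from C57BL/10J was 0.29 for Msh4 and 0.12 for Cntd1, in place of -0.59 and -0.98, and 1.30 for Mlh3 in place of 0.63. None of these was called with or without the array. Hsf2bp was -1.91 without it (adjusted p = 0.0052, limma) and Dmc1 was -0.83.

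**Figure D4:**
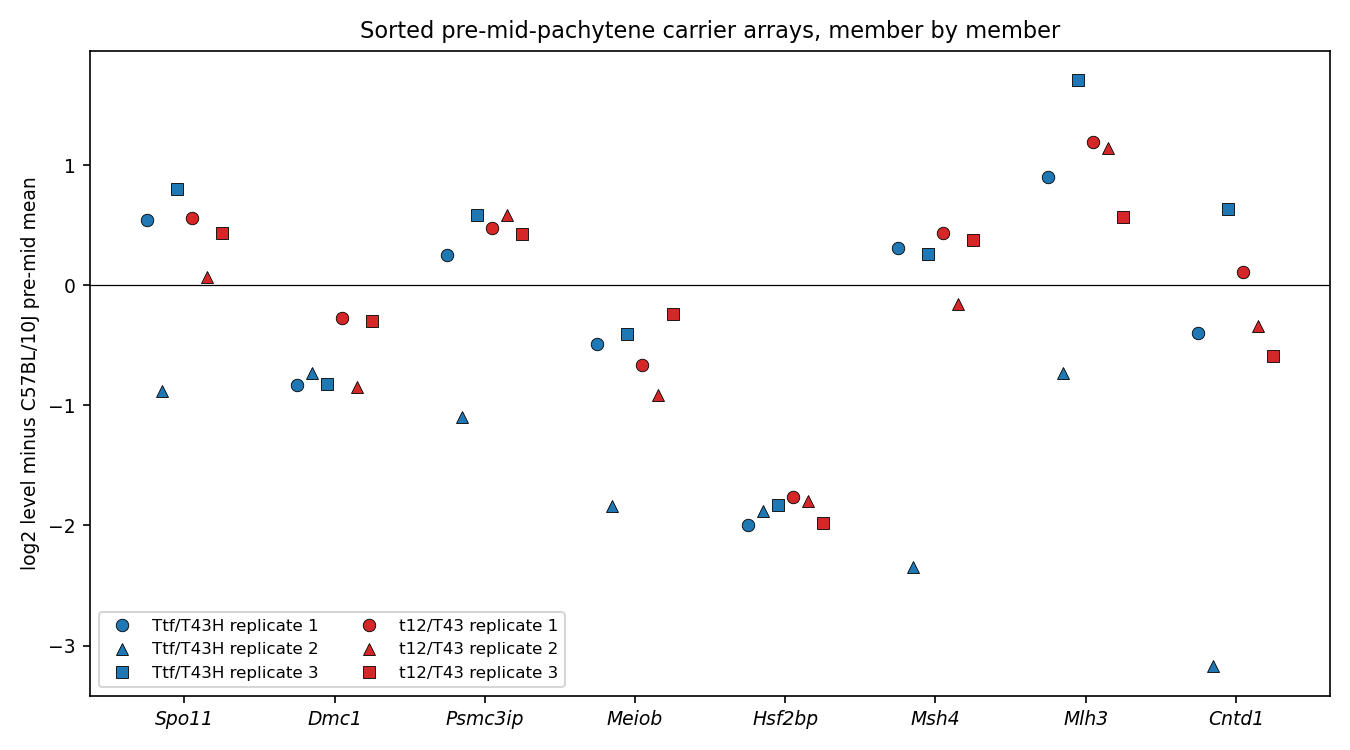
Log2 level of each member on each sorted carrier array minus the mean of the 2 C57BL/10J pre-mid arrays. Blue is Ttf/T43H, red is t12/T43, and the marker shape gives the replicate. Ttf/T43H replicate 2 is the lowest array for Spo11, Psmc3ip, Meiob, Msh4, Mlh3 and Cntd1, while the Hsf2bp values of all 6 arrays lie together near -1.90.

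In t12/T43 the same 5 genes differed from C57BL/10J by -0.28 ± 0.91 (Cntd1) to 0.97 ± 0.60 (Mlh3). Mlh3 stood at 9.53, 9.48 and 8.91 in t12/T43, at 9.24, 7.61 and 10.05 in Ttf/T43H and at 8.29 and 8.40 in C57BL/10J. None of the 5 was called, with adjusted p from 0.41 for Mlh3 to 0.93 for Cntd1 (limma).

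Other markers moved with these comparisons. The mid-late pachytene and division list of 13 genes averaged 10.35 to 10.51 in C57BL/10J, 9.65 to 10.17 in Ttf/T43H and 8.07 to 9.34 in t12/T43. The 15 spermatid markers averaged 10.51 to 11.17, 8.94 to 9.41 and 4.96 to 7.26. The 5 Leydig cell markers averaged 3.998 to 5.80 in C57BL/10J, 6.93 to 8.31 in Ttf/T43H and 8.03 to 10.61 in t12/T43, and the 13 Sertoli cell markers 6.48 to 6.62, 6.87 to 7.37 and 7.17 to 8.26. The 3′ minus 5′ difference of the Gapdh control probes, had a mean of 2.90 in C57BL/10J, 3.53 in Ttf/T43H and 3.74 in t12/T43. The part of these in the Hsf2bp difference was not tested. The leptotene and zygotene list averaged 12.86 to 12.91 in C57BL/10J, 12.65 to 12.84 in Ttf/T43H and 12.06 to 13.21 in t12/T43.

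Of 43 other recombination genes, 2 were called in each carrier group against C57BL/10J, beside 2.06% and 9.07% of all genes. Top3a, a topoisomerase of joint molecules, rose by 1.81 ± 0.36 in Ttf/T43H (adjusted p = 0.046, limma) and by 1.45 ± 0.36 in t12/T43 (adjusted p = 0.043, limma). Brca1 fell by 1.08 ± 0.21 in Ttf/T43H (adjusted p = 0.046, limma). Cdk2, a kinase found at crossover sites, fell by 1.08 ± 0.26 in t12/T43 (adjusted p = 0.037, limma).

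Between the carriers, no member was called in the sorted cells. With limma, 0 of 8 members were called and 0 had an unadjusted p under 0.05, while 0.755% of all genes were called. All 8 differences, t12/T43 minus Ttf/T43H, were positive, from 0.05 ± 0.17 for Hsf2bp to 0.81 ± 0.64 for Msh4. Without Ttf/T43H replicate 2, 5 of the 8 were negative, among them Cntd1 at -0.39, and Hsf2bp was at 0.06. The 95% interval of the Hsf2bp difference was -0.33 to 0.43, and that of Cntd1 was -1.16 to 2.56. Of the 43 other recombination genes, 0 were called and 1 had an unadjusted p under 0.05.

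In the 15-day testes, some members were called between the carriers, and those calls do not mark out a step of recombination. Cntd1, Psmc3ip and Msh4 were lower in t12/T43 than in Ttf/T43H, which is 3 of 8 members against 4.99% of all genes. The median difference was -0.44 over the members and 0.02 over all genes. Of all called genes, 21.5% were higher in t12/T43, and 33.5% with each array centred on its median, where the same number of members, 3, was called.

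Cntd1 stood at 10.06, 9.88 and 9.67 in Ttf/T43H, at 9.28, 8.997 and 8.78 in t12/T43 and at 9.32 and 9.39 in C57BL/6J. The difference between the carriers was -0.85 ± 0.14 (adjusted p = 0.036, limma), a factor of 1.81. The C57BL/6J values lay between the ranges of the carriers.

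Psmc3ip stood at 11.50, 11.40 and 11.17 in Ttf/T43H, at 10.90, 10.84 and 10.57 in t12/T43 and at 11.28 and 11.17 in C57BL/6J. It was lower in t12/T43 by -0.58 ± 0.11 (adjusted p = 0.041, limma). All t12/T43 testes were below the testes of the other groups.

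Msh4 stood at 8.81, 8.75 and 8.62 in Ttf/T43H, at 8.46, 8.32 and 8.19 in t12/T43 and at 8.61 and 8.52 in C57BL/6J. The difference of -0.40 ± 0.08 (adjusted p = 0.044, limma) is a factor of 1.32. As with Cntd1, the controls lay between the carriers.

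Spo11 and Mlh3 were not called between the carriers. Spo11 stood at 10.36, 10.23 and 9.86 in Ttf/T43H, at 9.84, 9.62 and 9.18 in t12/T43 and at 9.55 and 9.43 in C57BL/6J, with a difference between carriers of -0.60 ± 0.19 (adjusted p = 0.10, limma). Mlh3 differed by -0.47 ± 0.14 (adjusted p = 0.084, limma). The carrier ranges of Dmc1, Hsf2bp and Meiob overlapped, with differences of 0.03 ± 0.08, -0.16 ± 0.09 and -0.05 ± 0.07.

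The 3 calls were not firm. Leaving out Ttf/T43H replicate 1 or 2, or t12/T43 replicate 2 or 3, ended all of them, with adjusted p from 0.088 to 0.15, and without t12/T43 replicate 1 the adjusted p of Psmc3ip was 0.0501. With no filter on low values the adjusted p lay between 0.062 and 0.072, and quantile normalization gave 0.054 for Msh4. Without 1 carrier testis at a time, 0 to 4 members were called, beside 9 to 900 of all genes in place of 456. In a fit of all 18 arrays 0 members were called, beside 7 of all genes. With the replicate number as a block, the 3 calls were kept. Spo11 and Mlh3 were then called too (adjusted p = 9.8e-04 and 0.0020, limma), beside 1703 of all genes. Whether those numbers pair the testis arrays was not decided.

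The testes also differed in stage markers. The 13 mid-late pachytene and division markers averaged 6.74 to 7.23 in Ttf/T43H, 6.20 to 6.52 in t12/T43 and 7.35 to 7.67 in C57BL/6J, and 7 of the 13 reached 4 on every carrier testis. The 11 leptotene and zygotene markers averaged 12.04 to 12.16 in Ttf/T43H, 11.90 to 12.04 in t12/T43 and 11.93 to 12.02 in C57BL/6J. The 13 Sertoli cell markers averaged 9.87 to 10.16 over all 8 testes and the spermatid markers 2.98 to 3.12. The 5 Leydig cell markers averaged 4.41 to 7.56 in Ttf/T43H, 4.99 to 7.60 in t12/T43 and 7.43 to 8.21 in C57BL/6J. The part of cell composition in the members' differences was not tested.

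Against C57BL/6J testes, Dmc1 was higher in both carriers. It stood at 10.39, 10.47 and 10.29 in Ttf/T43H, at 10.40, 10.54 and 10.32 in t12/T43 and at 9.95 and 9.75 in C57BL/6J. It rose by 0.54 ± 0.09 in Ttf/T43H (adjusted p = 0.016, limma) and by 0.57 ± 0.09 in t12/T43 (adjusted p = 0.0070, limma), factors of 1.45 and 1.49. All 6 carrier testes lay above both controls. The Ttf/T43H call was lost without Ttf/T43H replicate 2 (adjusted p = 0.061, limma) or C57BL/6J replicate 2 (adjusted p = 0.11, limma), while the t12/T43 call was kept without each array in turn. Both were lost in a fit of all 18 arrays (adjusted p = 0.34 and 0.15, limma).

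Dmc1 was the 1 member of 8 called in Ttf/T43H against C57BL/6J, where 8.56% of all genes were called. In t12/T43 against C57BL/6J, 3 of 8 were called and 21.8% of all genes. The comparisons share the C57BL/6J arrays, whose strain differs from that of the carriers, so strain and karyotype cannot be told apart in them.

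The other members called in t12/T43 testes were lower than in C57BL/6J. Hsf2bp stood at 6.75, 6.56 and 6.60 in Ttf/T43H, at 6.54, 6.57 and 6.31 in t12/T43 and at 6.93 and 6.80 in C57BL/6J. It fell by 0.39 ± 0.10 in t12/T43 (adjusted p = 0.030, limma) and differed by -0.23 ± 0.10 in Ttf/T43H (adjusted p = 0.20, limma). Psmc3ip fell by 0.46 ± 0.13 in t12/T43 (adjusted p = 0.044, limma). The Psmc3ip call was lost without any 1 of the 5 arrays compared. The Hsf2bp call was lost without t12/T43 replicate 1 (adjusted p = 0.053, limma) or either C57BL/6J array (adjusted p = 0.18 and 0.075, limma).

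Meiob was level in the testes. It stood at 10.67, 10.71 and 10.65 in Ttf/T43H, at 10.73, 10.64 and 10.50 in t12/T43 and at 10.62 and 10.74 in C57BL/6J, and its differences from C57BL/6J were -0.01 ± 0.08 and -0.06 ± 0.08. The 95% intervals ran from -0.19 to 0.17 and from -0.24 to 0.12. Of its 8 tested neighbours on chromosome 17, 3 were called lower in Ttf/T43H, and 5 were lower and 1 higher in t12/T43. Of all genes, 8.56% and 21.8% were called.

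In Ttf/T43H testes, Spo11 differed from C57BL/6J by 0.66 ± 0.21 (adjusted p = 0.11, limma) and Cntd1 by 0.52 ± 0.16 (adjusted p = 0.095, limma). Neither was called. Among the other recombination genes, 4 of 42 were called in Ttf/T43H and 14 of 42 in t12/T43, of which 10 rose and 4 fell, beside 8.56% and 21.8% of all genes. Brip1, a helicase that binds BRCA1, rose by 0.71 ± 0.08 and 0.99 ± 0.08, and Slx4 fell by 0.49 ± 0.06 and 0.55 ± 0.06. Between the carriers, 3 of 42 were called, beside 4.99% of all genes, with Pms2 (0.25) and Tex11 (0.32) higher in t12/T43 and Swi5 (-0.22) lower.

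Whether the carrier differences themselves differed between sorted cells and testes was tested in a fit of all 18 arrays. For Ttf/T43H, 2 of 8 members were called against 3.54% of all genes, and for t12/T43 2 of 8 against 8.15%. They were Hsf2bp and Dmc1 in each. For Hsf2bp, the difference in sorted cells minus that in testes was -1.67 ± 0.18 in Ttf/T43H (adjusted p = 1.7e-04, limma) and -1.45 ± 0.18 in t12/T43 (adjusted p = 1.8e-04, limma). For Dmc1 it was -1.33 ± 0.24 (adjusted p = 0.0078, limma) and -1.04 ± 0.24 (adjusted p = 0.014, limma).

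By group means, Dmc1 thus lay below its control in sorted cells and above its control in testes. Hsf2bp lay below in both, by more in sorted cells. The Dmc1 difference in sorted cells was itself called in neither carrier, and that of Hsf2bp in Ttf/T43H testes was not called. Age, tissue and the strain of the controls all change between the 2 settings and cannot be told apart. The Dmc1 call was lost in both carriers without C57BL/6J replicate 2 (adjusted p = 0.060 and 0.086, limma), and in t12/T43 also without C57BL/10J pre-mid replicate 2 (adjusted p = 0.078, limma).

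For t12/T43 minus Ttf/T43H, 0 of 8 members were called and 1 had an unadjusted p under 0.05 by limma, against 0.734% of all genes called. That member was Psmc3ip, at 1.17 ± 0.44 (adjusted p = 0.46, limma). All 8 values were positive, and the sorted values among them include Ttf/T43H replicate 2.

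Over the 7 groups, the members differed in the order of their levels. Dmc1 and Meiob were highest in C57BL/10J pre-mid cells (11.84 and 13.00) and lowest in mid-late cells (3.54 and 7.82), with the testes between. For Dmc1, t12/T43 and Ttf/T43H overlapped in sorted cells and again in testes, and all other neighbours in the order were apart. For Meiob, the carriers overlapped in sorted cells and the 3 testis groups overlapped with their neighbours.

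Msh4 was lowest in mid-late cells as well (7.91), below all testes, with the 3 pre-mid groups on top and overlapping. Spo11, Psmc3ip and Hsf2bp were higher in all 4 sorted groups than in all 3 testis groups. For Spo11 the sorted groups overlapped with their neighbours in the order, from 12.33 in mid-late to 11.90 in C57BL/10J pre-mid cells.

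Psmc3ip ran from 13.88 in mid-late cells to 10.77 in t12/T43 testes. Hsf2bp ran from 11.24 in C57BL/10J pre-mid cells to 6.47 in t12/T43 testes, and only the carrier groups overlapped, within sorted cells and within testes. Mlh3 had the narrowest span, 1.32 between its highest and lowest group means, and 5 of its 6 neighbouring pairs overlapped. It was highest in mid-late cells (9.55), and its C57BL/10J pre-mid mean (8.34) lay below those of Ttf/T43H and C57BL/6J testes. Cntd1 ran from 11.82 in C57BL/10J pre-mid cells to 9.02 in t12/T43 testes.

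Within the carriers, the pre-mid cells had higher levels than the testes for all 8 members. In Ttf/T43H the difference was between 0.26 (Mlh3) and 2.70 (Hsf2bp), and the ranges overlapped for Msh4, Mlh3 and Cntd1. In t12/T43 it was between 0.95 (Dmc1) and 3.09 (Psmc3ip). The share of all genes that were higher in sorted cells was not counted. Sorted cells and testes differ in cell types, age and RNA extraction kit. The mean 3′ minus 5′ difference of the Gapdh control probes was 3.53 in sorted Ttf/T43H cells and 0.03 in Ttf/T43H testes. In t12/T43 it was 3.74 and -0.01. The part of these in the members' differences was not tested.

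As a description over the 7 group means, which share arrays and sorting, Dmc1 and Meiob correlated at 0.932, and Spo11 and Psmc3ip at 0.988. Dmc1 and Spo11 correlated at -0.21 and Dmc1 and Hsf2bp at -0.22. The genes of the array most like each member were chosen by Pearson's correlation over the same means. They were Brdt, Tmem259 and Ubr4 for Spo11, Acer3, Tex16 and Trappc11 for Dmc1, Psip1, Ccdc34 and Nek2 for Psmc3ip, and Nol7, Parp2 and Klhl20 for Meiob. Those for Hsf2bp were Asb1, Tubgcp2 and Ndufaf7, for Msh4 Rbx1, Naxe and Rab2a, for Mlh3 Pcbp1, Dnaaf6 and Mblac1, and for Cntd1 Rnf6, Pcnx4 and Tmem161b. The correlation with the most similar gene was lowest for Mlh3, at 0.969 with Pcbp1, and 0.987 or more for the other members.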

How the data were processed

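The deposited values are on a log2 scale and come from GCRMA according to the submitters' processing notes, with no version stated. GCRMA adjusts for background by probe sequence, normalizes the arrays together and reduces probes to 1 value a gene. Per the labels' protocols, sorted-cell and testis RNA went through a 2-cycle biotin labelling, which can shorten transcripts. The set of arrays normalized jointly, the genome build and any filter: not given in the sources used here. That the scale is log2 was read from the range of values.

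The table has 16539 probe sets, of which 15780 carry 1 symbol and were used. Genes with a log2 value of at least 4 on at least 2 arrays of a fit were tested, 9666 in the 10 sorted arrays, 9134 in the 8 testes and 10623 in all 18. limma 3.58.1 in R 4.3.3 (lmFit, 1 mean per group, eBayes, two-sided, Benjamini-Hochberg) was tested on simulated data. Arrays give no read depth, and their number limits the precision. The members and all gene lists were chosen with earlier results of these data known. Named genes are the members, the called or lowest-p genes of the recombination list, the called neighbours and the most correlated genes. Alternatives were the filter, normalization, centring, variance trend, array weights, the fit's arrays, a replicate block and leaving out arrays. Replicates are biological per the series' design text.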

Additional observations from a re-analysis of the deposited data

Results flagged for a closer look

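Hsf2bp and Dmc1 drew attention because their carrier differences themselves differed between sorted cells and testes, by an interaction term in limma over all 18 arrays. The difference from the control in sorted cells minus that in testes was -1.67 for Hsf2bp and -1.33 for Dmc1 in Ttf/T43H. It was -1.45 for Hsf2bp and -1.04 for Dmc1 in t12/T43. No member's group of arrays was large enough for the check of single outlying samples, which needs at least 4.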

How the results depend on the processing

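Of 17 called differences among 80 pairs of a member and a comparison, 6 were called in every alternative that was run, and 0 changed sign. They are the falls of Dmc1, Meiob and Msh4 with stage, Hsf2bp in sorted t12/T43 cells and both Hsf2bp differences between sorted cells and testes. Of the 63 differences that were not called, 22 changed sign in at least 1 alternative. The precision is set by the 2 or 3 arrays of each group.

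Called members are given in the order t12/T43 minus Ttf/T43H, Ttf/T43H minus control and t12/T43 minus control. With array weights they were 1, 5 and 5 in sorted cells, 5, 5 and 3 in testes, 7, 5 and 6 for the difference between settings and 7 for stage, and 1945 to 7300 of all genes were called, against 73 to 5464 with equal weights. The estimation of the weights stopped before it converged in some of these fits, so these counts are of limited use, and the cause was not tested. With no filter, 0 members were called between the carriers in testes, where 149 of all genes were called in place of 456 (and 15 in place of 73 between the sorted carriers, and 8867 in place of 5464 for stage). In 1 fit of all 18 arrays, which pools the spread of both settings, 2 members were called in sorted Ttf/T43H and 0, 0 and 0 in the testes. There, 595, 1592 and 2204 of all genes were called in sorted cells in place of 73, 199 and 877, and 7, 65 and 191 in testes in place of 456, 782 and 1994. Without both sorted Ttf/T43H replicate 2 and sorted t12/T43 replicate 3, 5 members were called for t12/T43 between settings. Of all genes, 0 were then called between the sorted carriers (in place of 73), 542 in sorted Ttf/T43H in place of 199, and 1403 and 1788 between settings in place of 376 and 866. Without sorted t12/T43 replicate 2 alone, 411 were called between the sorted carriers, and 1391 in sorted t12/T43 in place of 877. Leaving out 1 carrier array at a time kept the Hsf2bp call in sorted Ttf/T43H, beside 36 to 368 of all genes called. In the testes it gave 0 to 4, 0 to 1 and 1 to 2 called members, beside 9 to 900, 350 to 827 and 1241 to 1644 of all genes. Between settings, the Hsf2bp and Dmc1 calls were kept for each carrier, beside 186 to 862 and 613 to 1691 of all genes. Leaving out a control array left 1 in its group, so a call lost there cannot decide whether that call is firm. The member calls lost in those fits are given above.

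With the replicate number as a replicate block, 0 members were called in sorted Ttf/T43H, where the adjusted p of Hsf2bp was 0.051 (limma), and 5, 6 and 5 in the testes. Of all genes, 0, 18 and 400 were then called in sorted cells and 1703, 2139 and 2875 in testes. Deviations of same-numbered carriers, for replicates 1, 2 and 3, correlated at 0.25, 0.02 and -0.35 in sorted cells. In testes they correlated at 0.49, 0.04 and 0.68. These values are mixed, so the check does not decide whether the numbers pair the testis arrays.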
